A study of Mus musculus with 24 samples.

Results

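The maternal by offspring diet interaction in daughters asks whether the response of female offspring to a high fat diet depended on the vitamin D content of the mother's diet. For each gene it is the high fat minus low fat difference in daughters of vitamin D-deficient mothers, minus the same difference in daughters of control mothers, on the deposited log2 scale. It was taken from 12 of the 24 libraries of the series, and every gene of the tables was eligible. Of 56895 entries kept, 17519 reached 10 normalized reads in 3 or more of these mice and were tested.

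RNA came from retroperitoneal white adipose tissue of C57BL/6J mice and was sequenced after selection of polyadenylated transcripts. Mothers received the AIN-93G diet with 1.0 IU per g of vitamin D3 (CTRL) or the same diet with 0.0 IU per g (VDD) for 8 weeks. The discussion of the study puts the deficient diet at 8 weeks or more before mating and through gestation. All mothers had the control diet between birth and weaning. At 6 weeks of age their offspring were assigned to a low fat diet (LF, AIN-93M) or a high fat diet (HF, 45% of energy from fat) for 8 weeks. The groups were CTRL LF, CTRL HF, VDD LF and VDD HF daughters, each with 3 mice. The deficient diet itself was fed to the mothers and not to the offspring. Mice are named here by the number in their column, which is 2124, 2125 and 2335 for CTRL LF, 2290, 2291 and 2292 for CTRL HF, 2303, 2311 and 2312 for VDD LF, and 2081, 2083 and 2121 for VDD HF. Values of a group are always given in this order, as normalized reads. The CTRL and VDD tables were scaled apart by the authors, so levels are compared within a maternal group only, and marker sums set across the groups carry that limit. The labels name no litter, so p-values measure the spread between these mice, some of which may share a mother.

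White adipocytes store triglyceride and release it as fatty acids. Fatty acids enter mitochondria as carnitine esters and are broken down by beta-oxidation, whose electrons pass to the respiratory chain. Some fat depots also hold thermogenic adipocytes, brown or beige, in which uncoupling protein 1 (Ucp1) lets the proton gradient run off as heat. High fat feeding of mice is known to enlarge white fat, with more leptin mRNA, more extracellular matrix and more macrophages.

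The libraries were of adipose tissue by their defining genes. Adipoq, which encodes adiponectin, had 41781 to 93330 normalized reads in the 12 daughters, and its interaction was -0.12 (standard error 0.55). Between 13346779 and 18484346 reads fell on genes per library, and mice of a group correlated across genes with r from 0.915 to 0.979 (12 pairs). Several libraries carried genes of neighbouring tissues, as the plot of marker lists by mouse shows. The kidney list summed to 11203 normalized reads in VDD LF 2303 and to 18.3 to 660.4 in the others. Skeletal muscle genes summed to 26527 to 182900 in 1 mouse of each group (2335, 2292, 2303 and 2083) and to 218 to 1180.5 in the other 8. Adrenal genes summed to 37346 in CTRL HF 2292, 18163 in VDD HF 2121 and 11610.4 in CTRL HF 2290 and to 417.5 to 2435 in the others, ovary and uterus genes were highest in the same 3 mice, and T lymphocyte genes in VDD HF 2081 (2105 against 295 to 966). The part that these tissues had in the values below was not tested, except where a value without those libraries is given.

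**Figure D1:**
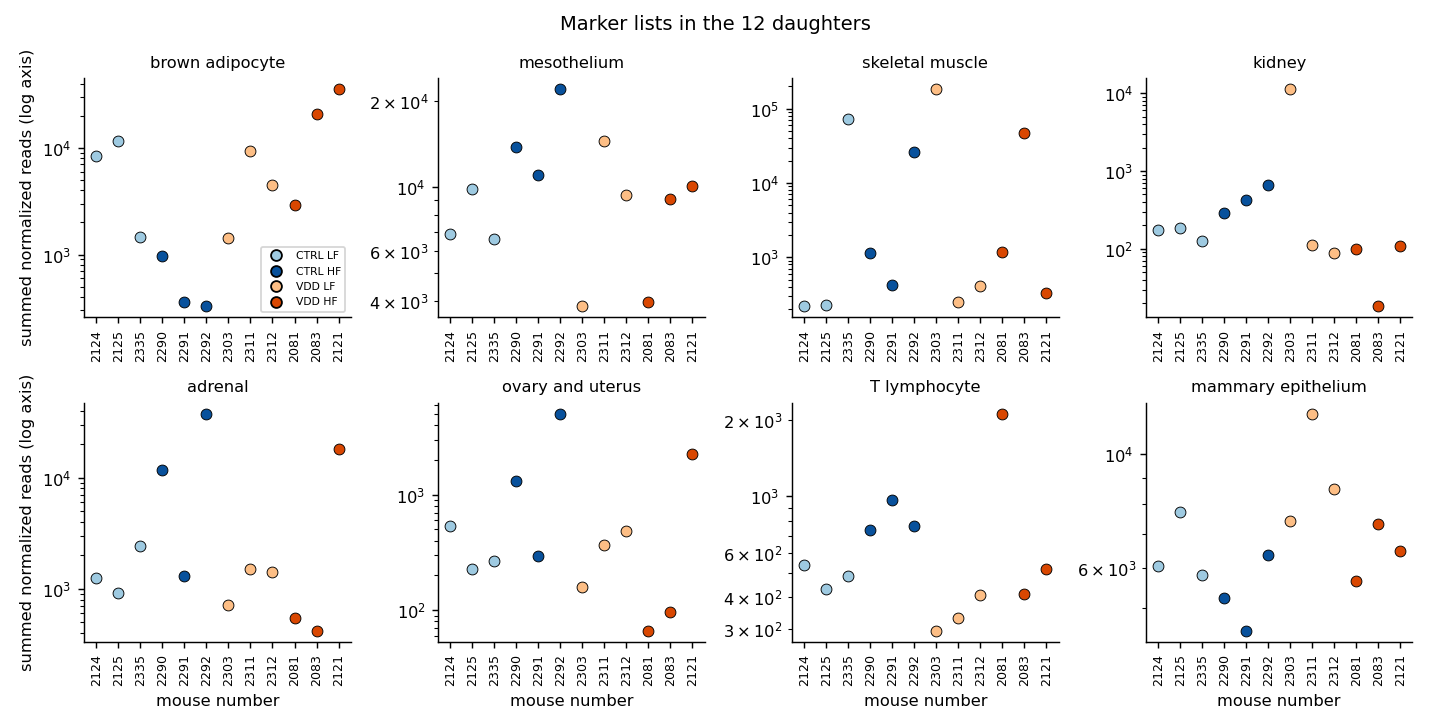
Summed normalized reads (log axis) of 8 marker lists in each of the 12 daughters, with the mouse number on the x axis and the group by colour. Kidney genes stand out in VDD LF 2303 (11203), skeletal muscle genes in 1 mouse of each group, and brown adipocyte genes run from 327 in CTRL HF 2292 to 35501 in VDD HF 2121.

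No gene passed the thresholds for the interaction. With limma, 0 of 17519 genes (0%) had an adjusted p under 0.01 with a fold above 1.5 or below 0.66, and the smallest adjusted p was 0.539. At an unadjusted p under 0.05 there were 678 genes with a positive interaction (3.87% of those tested) and 697 with a negative one (3.98%), and at an unadjusted p under 0.01 there were 142 and 130. A positive value means that HF minus LF was higher in VDD than in CTRL daughters. Counts of list members with an interaction at an unadjusted p under 0.05 are to be read beside 3.87% and 3.98%. The gene values below are therefore a description of the genes and gene groups at the head of the ranking, and none of them is a call. Where a gene is named without an adjusted p, its adjusted p for the interaction was 0.539 or more. Limma-voom on the recovered reads also called 0 genes, and a fit with the brown adipocyte level as a covariate, added after the data were seen, called 31, all negative.

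The HF response on its own was counted in each maternal group. In CTRL daughters 1880 genes were lower (10.7%) and 1612 higher (9.2%) under HF at an unadjusted p under 0.05, 46 had an adjusted p under 0.05, and 0 passed both thresholds. In VDD daughters 852 were lower (4.86%) and 892 higher (5.09%), and 0 had an adjusted p under 0.05. At the same thresholds the study itself, with DESeq2, reported changed genes for HF in both maternal groups of daughters, more in CTRL than in VDD. The absence of limma calls is thus a result of the main fit used here. Limma with array weights called 76 genes for HF in CTRL daughters, and limma-voom called 0. Why these counts differ from those of the study was not tested. Across the 17519 genes the standard deviation of the log2 differences was 0.71 in CTRL and 0.56 in VDD daughters. The 2 responses share no library, and across genes, which are not independent replicates, they correlated with a Pearson r of 0.231 and a Spearman rho of 0.299. Of the 678 genes with a positive interaction, 417 had an unadjusted p under 0.05 for HF in CTRL daughters only, 122 in VDD daughters only, 118 in neither, 12 in both with opposite signs and 9 in both with the same sign. For the 697 with a negative one these numbers were 337, 165, 163, 32 and 0.

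**Figure D2:**
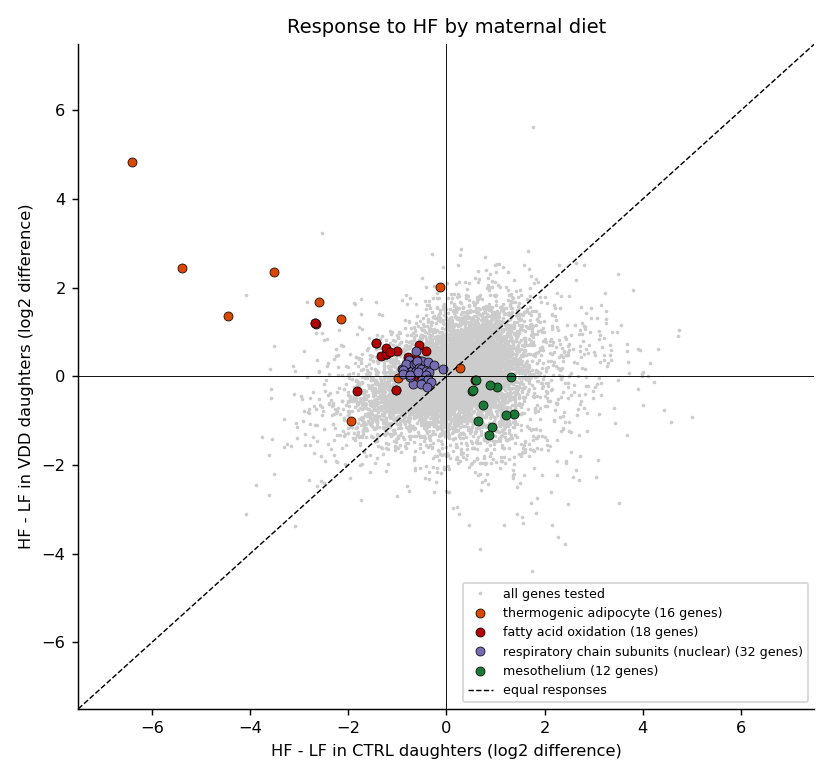
HF minus LF (log2 difference) in CTRL daughters on the x axis and in VDD daughters on the y axis, for the 17519 genes tested (grey) and for the members of 4 lists (colours); the dashed line marks equal responses. Of the thermogenic genes 15 of 16 and of the fatty acid oxidation genes 17 of 18 lie left of 0, with 13 and 14 above 0 on the y axis, and all 12 mesothelial genes lie right of 0 and below it.

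Genes of thermogenic adipocytes and of fatty acid oxidation were the pathway lists with the largest positive median interactions. Most of their genes had lower values under HF in CTRL daughters (15 of 16 and 17 of 18) and higher values under HF in VDD daughters (13 and 14). At an unadjusted p under 0.05, 13 and 15 were lower in CTRL daughters (10.7% of all genes). In VDD daughters only 1 and 1 were higher at that level (5.09% of all genes). Of 16 thermogenic genes tested, 15 had a positive interaction, 10 at an unadjusted p under 0.05 (against 3.87% of all genes), and 0 had a negative one at that level. Their median interaction was 2.81 on the log2 scale, where the median of all genes tested was 0.01. It was made of a median HF difference of -2.05 in CTRL and 1.20 in VDD daughters. In bulk tissue, fewer thermogenic adipocytes and less of these mRNAs in each cell cannot be told apart. Lists and members were chosen with earlier results of these data known, so list counts set beside the share of all genes are a description.

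Ucp1 had 3264, 5957 and 150.0 normalized reads in CTRL LF, and 235, 9.64 and 0.911 in CTRL HF daughters. In VDD LF daughters it had 3.51, 946 and 839.8, and in VDD HF daughters 842, 4275 and 23396. The mice of a group differed by orders of magnitude, LF and HF overlapped in both maternal groups, and the interaction was 11.25 (standard error 3.30, adjusted p = 0.593). The lowest VDD LF mouse was 2303, the library with kidney and muscle RNA, and without it the interaction was 8.71.

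Cidea, a lipid droplet protein of brown adipocytes, had 2528, 3045 and 303 reads in CTRL LF and 237, 43.9 and 20.0 in CTRL HF daughters, with no overlap, as for 34.3% of all genes tested in CTRL and 11.9% in VDD daughters. In VDD daughters it had 194, 5124 and 2137 under LF and 738, 9677 and 5005 under HF, with overlap (interaction 5.80, standard error 1.97). Elovl3, which elongates very long chain fatty acids in brown fat, had 749, 385 and 10.6 reads in CTRL LF and 6.74, 2.14 and 0.911 in CTRL HF daughters. Its values were 32.8, 49.9 and 23.7 in VDD LF and 37.3, 293 and 608 in VDD HF daughters, an interaction of 7.83 (standard error 1.97). Elovl3 did not overlap between the diets in CTRL daughters and did in VDD daughters, where the highest HF values were those of 2083 and 2121.

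Cox8b and Fabp3 showed the same arrangement with less spread. Cox8b, a muscle and brown fat form of a cytochrome c oxidase subunit, had 1304, 1560.2 and 635 reads in CTRL LF and 298, 125 and 135 in CTRL HF daughters, against 743, 2162 and 901 in VDD LF and 883, 4218 and 4565 in VDD HF daughters (interaction 3.84, standard error 0.91). Fabp3, a fatty acid-binding protein of oxidative tissues, had 389, 313 and 307 reads in CTRL LF, 44.2, 22.5 and 158 in CTRL HF, 389.7, 215 and 158 in VDD LF, and 272, 983 and 1665 in VDD HF daughters (interaction 4.29, standard error 1.01). Both had LF and HF mice fully apart in CTRL and overlapping in VDD daughters. Otop1 (5.86), Cox7a1 (3.44), Cpt1b (3.89), Ppara (2.19) and Slc25a20 (1.73) were the other list members at an unadjusted p under 0.05. Prdm16, a transcription factor of the brown lineage, had an interaction of -0.08, and Dio2, which activates thyroid hormone, one of 2.15. Zic1, a marker of interscapular brown fat, had at most 15.2 reads and was not tested.

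Fatty acid oxidation genes were nearly uniform. Of 18 tested, 17 had a positive interaction and 14 of them an unadjusted p under 0.05, with a median of 1.37 (HF difference -1.01 in CTRL and 0.49 in VDD daughters). Of these genes 4 are shared with the thermogenic list, and without them 13 of 14 were positive and 11 had a p under 0.05. The mean log2 level of the list was 11.02, 11.26 and 10.745 in VDD LF daughters. In VDD HF daughters it was 10.67, 12.02 and 11.55, so that 2081 lay below every VDD LF mouse.

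Slc25a20, the carnitine-acylcarnitine carrier of the inner mitochondrial membrane, had 2592, 2426 and 1693 reads in CTRL LF and 1013, 841 and 984 in CTRL HF daughters. In VDD daughters it had 1452, 2042 and 1259 under LF and 1445, 3160.0 and 2364 under HF. The diets did not overlap in CTRL and overlapped in VDD daughters, and the interaction was 1.73 (standard error 0.39, adjusted p = 0.539). Acadl, long chain acyl-CoA dehydrogenase, had 10352, 11133 and 6873 reads in CTRL LF and 3963, 3777 and 3265 in CTRL HF daughters, and 7679.9, 10429.9 and 6066 in VDD LF and 6445, 16587 and 11902 in VDD HF daughters. Its interaction was 1.80 (standard error 0.46). It too was apart by diet in CTRL and overlapping in VDD daughters.

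The very long chain dehydrogenase Acadvl had an interaction of 1.87, the subunits Hadha and Hadhb of the trifunctional protein 1.74 and 1.69, Cpt2, which regenerates acyl-CoA inside the mitochondrion, 1.22, and Etfdh, which hands electrons to ubiquinone, 1.58. In each of these the CTRL difference was below 0 and the VDD difference was above 0 and smaller in size. The exception was Cpt1a, the liver-type carnitine palmitoyltransferase of the outer membrane. It had 1176, 1029 and 953 reads in CTRL LF and 1607, 1266 and 1902 in CTRL HF daughters, and 1092, 711 and 806 in VDD LF and 939.8, 685 and 819 in VDD HF daughters, an interaction of -0.66 (standard error 0.28). The muscle-type enzyme Cpt1b went the other way (3.89, standard error 1.28), with 24.3, 47.1 and 9.29 reads in CTRL LF and 5.24, 1.07 and 2.73 in CTRL HF daughters.

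The respiratory chain was arranged likewise with smaller values. All 32 nuclear-encoded subunits tested had a positive interaction, 10 of them at an unadjusted p under 0.05, and the median was 0.70 (HF difference -0.55 in CTRL and 0.12 in VDD daughters). All 32 were lower under HF in CTRL daughters, 12 at an unadjusted p under 0.05 (against 10.7% of all genes). In VDD daughters 23 were higher under HF, 0 of them at that level. Uqcrfs1, the iron-sulfur subunit of complex III, had 4256, 4857 and 3708 reads in CTRL LF and 2199, 2884 and 2425 in CTRL HF daughters, and 5472, 4956 and 2755 in VDD LF and 3598, 7159 and 6176 in VDD HF daughters (interaction 1.14, standard error 0.41). It was apart by diet in CTRL and overlapped in VDD daughters. Uqcrc1, another subunit of complex III, had an interaction of 1.19, and the ATP synthase subunit Atp5b one of 0.94. Of 13 protein-coding genes of the mitochondrial genome, a list added after the data were seen, 12 had a positive interaction, 2 (mt-Co2 and mt-Nd6) at a p under 0.05, and the median was 0.84.

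These counts varied with the libraries used. Without the 4 mice with most skeletal muscle RNA, 1 from each group, 9 thermogenic, 10 fatty acid oxidation and 2 respiratory chain genes had a positive interaction at an unadjusted p under 0.05. Without the 2 mice whose column name holds the word renal (2124 and 2312) the counts were 9, 8 and 2. With single mice left out the respiratory chain count ran from 4 (without 2125, 2290, 2312 or 2083) to 16 (without 2081). With single mice left out, the medians ran from 2.26 to 3.96 for the thermogenic, 1.12 to 1.71 for the fatty acid oxidation and 0.39 to 0.87 for the respiratory chain list.

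Other lipid genes followed in part. Acacb, the acetyl-CoA carboxylase of the mitochondrial surface, had 8128, 10742 and 10918 reads in CTRL LF and 1647, 697 and 1282 in CTRL HF daughters (HF difference -3.11, adjusted p = 0.0393 by limma). In VDD daughters it had 6410.2, 9334 and 8626 under LF and 3659, 12996 and 4688 under HF, and the interaction was 2.71 (standard error 0.61). CTRL mice were fully apart by diet, and VDD HF 2083 was the single mouse above the VDD LF range. Of 18 genes of de novo lipogenesis, 15 had a positive interaction and 2 (Acacb and Elovl3) a p under 0.05. Fasn, fatty acid synthase, had an interaction of 1.71 with a standard error of 1.24.

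Among lipid droplet and lipolysis genes 15 of 17 were positive, 3 at a p under 0.05. Plin2, a coat protein of small droplets, had 6672, 5274 and 7811 reads in CTRL LF and 3066, 5059 and 2913 in CTRL HF daughters. It had 4249, 4615 and 4573 in VDD LF and 5049, 6725 and 6158 in VDD HF daughters, so that HF was below LF in every CTRL mouse and above it in every VDD mouse (interaction 1.27, standard error 0.31). Plin5, which tethers droplets to mitochondria, had an interaction of 2.87 (standard error 0.86). The third was Cidea. Pnpla2 and Lipe, the main triglyceride and diglyceride lipases, had interactions of 0.76 and 0.60. Of 18 genes of fatty acid uptake and triglyceride synthesis, 16 were positive and 0 had a p under 0.05.

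Pparg, the nuclear receptor that drives fat cell formation, had 3647, 3849.9 and 4518 reads in CTRL LF and 2423, 2711 and 1848 in CTRL HF daughters, and 4188, 4736 and 3417 in VDD LF and 3619.7, 4094 and 3539 in VDD HF daughters. CTRL mice were apart by diet and VDD mice were not (interaction 0.67, standard error 0.24). Of 15 adipogenic transcription factors 13 were positive, 3 at a p under 0.05. Apolipoprotein genes were on the list of LXR targets, in which 11 of 13 genes were positive, 3 at a p under 0.05, with 1 negative at that level (Nr1h4, -2.77). Apoc1 had an interaction of 1.17 (standard error 0.25). Apoc3 was lower under HF in every mouse of both maternal groups, with differences of -3.04 in CTRL and -1.38 in VDD daughters (interaction 1.65, standard error 0.65).

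**Figure D3:**
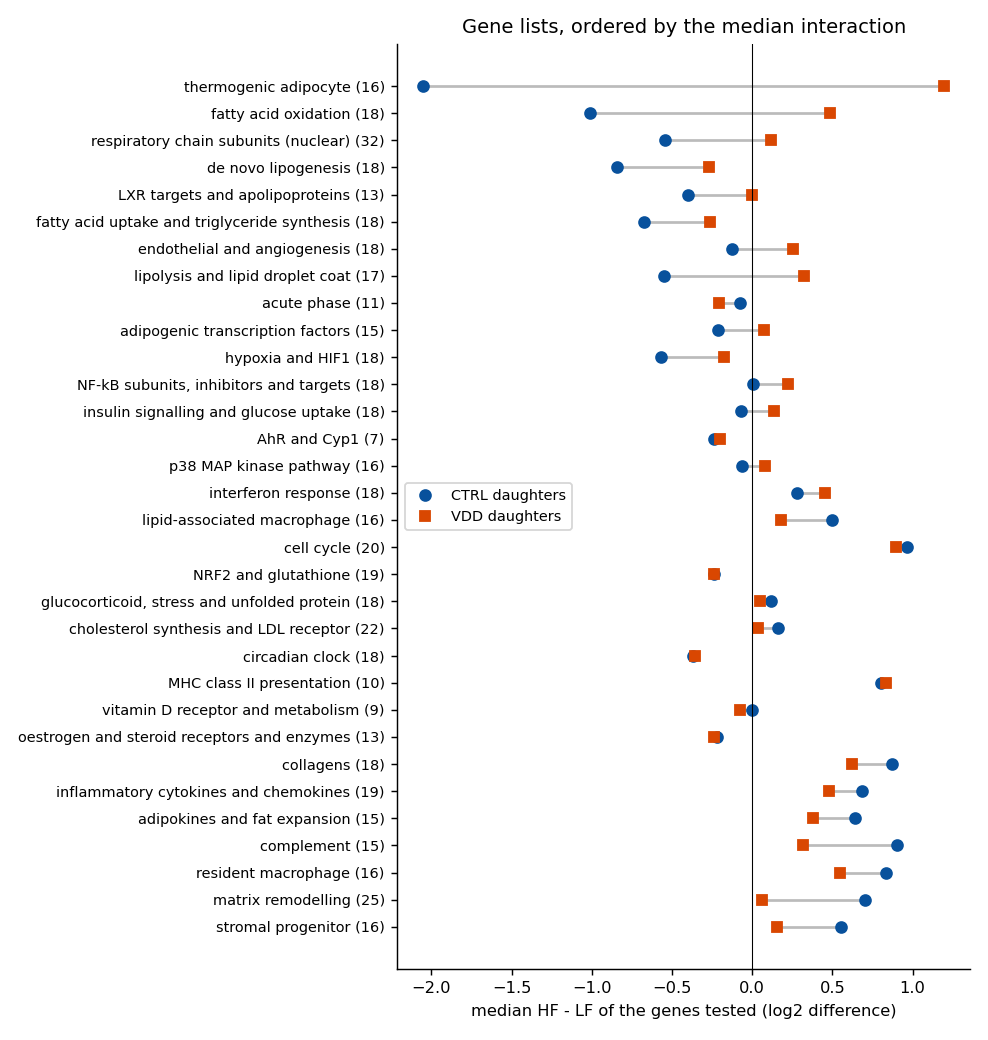
Median HF minus LF (log2 difference) of the genes tested in each pathway list, for CTRL daughters (circles) and VDD daughters (squares), with the number of genes in parentheses and the lists ordered by their median interaction. The thermogenic list runs from -2.05 to 1.20 and the fatty acid oxidation list from -1.01 to 0.49, while the cell cycle list is at 0.97 and 0.90.

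The 10 genes with the smallest p for a positive interaction were of several kinds. Sephs2, selenophosphate synthetase, had 1840.3, 1812 and 1879.8 reads in CTRL LF and 710.0, 724 and 695 in CTRL HF daughters, and 2174, 2019 and 1538 in VDD LF and 1757, 1958 and 1303 in VDD HF daughters. The CTRL groups hardly varied within themselves, the VDD groups overlapped, and the interaction was 1.18 (standard error 0.23). Nrg4, a growth factor secreted by brown adipocytes, had 2611, 2642 and 2402 reads in CTRL LF and 1045, 855 and 797 in CTRL HF daughters, and 2533, 1653 and 1529 in VDD LF and 1776, 1771 and 1333 in VDD HF daughters (interaction 1.31, standard error 0.28). The HF difference in CTRL daughters had an adjusted p of 0.0309 for each of Sephs2, Nrg4 and Uhrf1bp1. Slc25a34, a mitochondrial carrier, had 222, 175 and 398 reads in CTRL LF, 36, 8.57 and 29.1 in CTRL HF, 153, 181 and 125 in VDD LF and 83, 324 and 534 in VDD HF daughters (interaction 4.19, standard error 0.93).

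In another 3 of these 10 genes HF was below LF in CTRL and above LF in VDD daughters, with no overlap in either. Of all genes tested 0.188% had this arrangement and 0.388% the reverse, and ranking by the interaction favours such genes, so the count is a description. Adcy3, an adenylyl cyclase that makes cyclic AMP, had 807, 1191 and 708 reads in CTRL LF and 498, 468 and 526 in CTRL HF daughters, and 511, 464 and 406 in VDD LF and 563, 851 and 867 in VDD HF daughters (interaction 1.52, standard error 0.30). Acad10, an acyl-CoA dehydrogenase family member, and Hlx, a homeobox transcription factor, had the same arrangement with interactions of 1.09 and 1.15. The remaining genes were Oplah (1.16), a glutathione cycle enzyme, Slc25a22 (1.13), a mitochondrial glutamate carrier, Apoc1 and Uhrf1bp1 (0.96). Cry1, a repressor of the circadian clock, had an interaction of 1.07 and Dbp, a clock output gene, one of -1.19, while the clock list as a whole had a median of 0.00.

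**Figure D4:**
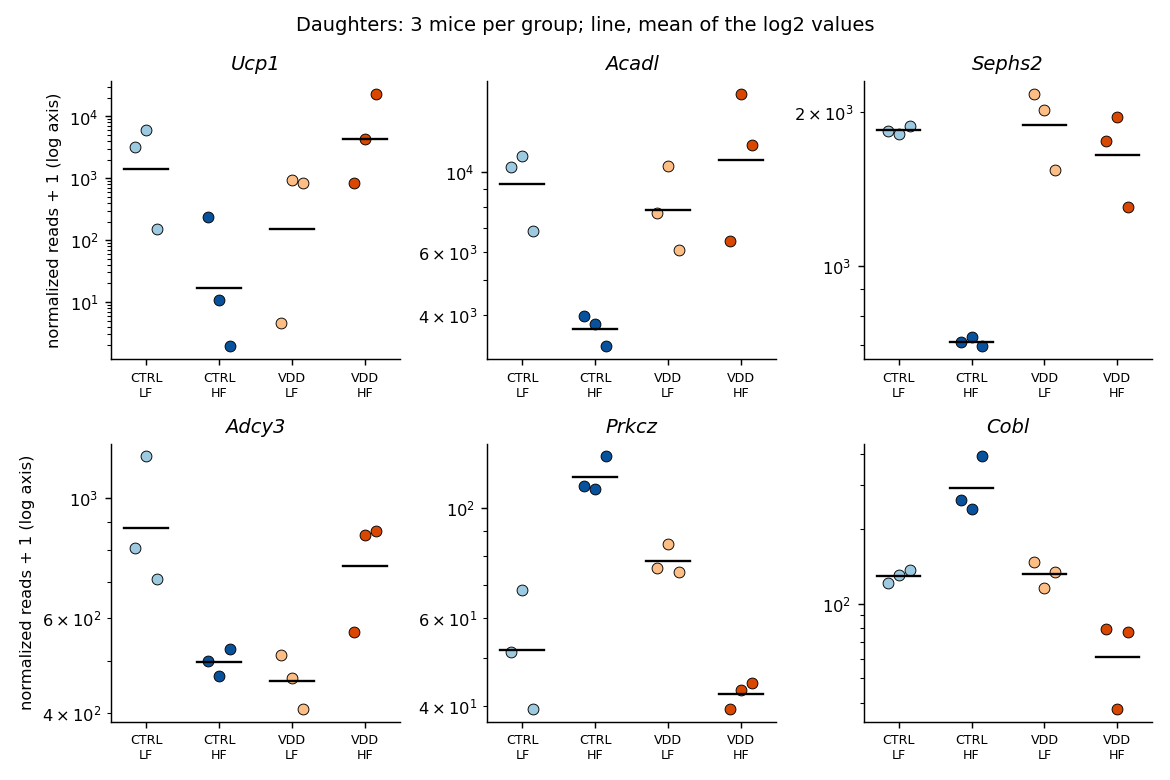
Normalized reads + 1 (log axis) of 6 genes in the 12 daughters, by group; each point is a mouse and each line the mean of the log2 values of 3 mice. CTRL and VDD were scaled apart. Acadl and Sephs2 are lower under HF in CTRL daughters and overlap in VDD daughters, Ucp1 overlaps in both, Adcy3 is lower under HF in CTRL and higher under HF in VDD daughters, and Prkcz and Cobl are the reverse.

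In the negative direction the leading genes were higher under HF in CTRL daughters and lower under HF in VDD daughters. The smallest p of all genes was that of Prkcz, an atypical protein kinase C of cell polarity and insulin signalling. It had 50.4, 67.3 and 38.5 reads in CTRL LF and 109, 108 and 126 in CTRL HF daughters, and 74.9, 83.5 and 73.2 in VDD LF and 38.5, 42.1 and 43.5 in VDD HF daughters. The diets did not overlap in either maternal group, and the interaction was -2.04 (standard error 0.31, adjusted p = 0.539).

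Hdac11, a histone deacetylase, had 131, 168 and 165 reads in CTRL LF and 246, 211 and 312 in CTRL HF daughters, and 199, 241 and 203 in VDD LF and 118, 109.9 and 144 in VDD HF daughters (interaction -1.50, standard error 0.26). Cobl, an actin nucleator, had 121, 130.2 and 135 reads in CTRL LF and 261, 240.0 and 392 in CTRL HF daughters, and 146, 115 and 133 in VDD LF and 78.2, 36.6 and 75.6 in VDD HF daughters (interaction -2.28, standard error 0.40). Both were apart by diet, in opposite directions, in the 2 maternal groups. So were Gm36283 (-2.05), Aldoc, an aldolase (-3.09), Stxbp6, a regulator of vesicle fusion (-1.34), and Slc6a15, an amino acid transporter (-3.73). Ankrd29 (-1.94) and Gm31517 (-2.78) were higher in every CTRL HF than in every CTRL LF mouse and overlapped in VDD daughters. Ezr, which links the membrane to actin in epithelia, had an interaction of -1.64.

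Mesothelial genes were on the same side. The mesothelium covers the peritoneal side of the depot. All 12 genes of its list had a negative interaction, 3 at an unadjusted p under 0.05 (against 3.98% of all genes), with a median of -1.37 (HF difference 0.88 in CTRL and -0.49 in VDD daughters). None of the 12 was lower under HF in CTRL daughters, and all 12 were lower in VDD daughters. Gpm6a, a membrane glycoprotein, had 711, 902 and 708 reads in CTRL LF and 1513, 1042 and 1964 in CTRL HF daughters, and 517, 671 and 549 in VDD LF and 459.7, 99.8 and 381 in VDD HF daughters (interaction -2.07, standard error 0.65). Upk3b and Muc16 were the other genes, at -1.33 and -2.23. The summed list was highest in CTRL HF 2292 (22036) and lowest in VDD LF 2303 (3830) and VDD HF 2081 (3974), and without 2292 its median interaction was -1.10. Mouse 2292 was also highest in the adrenal and the ovary and uterus lists. The sign was not particular to mesothelium. Ovary and uterus (7 of 7 negative, median -3.415), adrenal (5 of 5, -2.465) and kidney genes (3 of 3, -3.925) shared it. So did mammary epithelium (6 of 7, -1.41). Of 12 genes in each of the adrenal and kidney lists, only 5 and 3 were tested. In other settings the adrenal and the ovary and uterus medians reached 1.305 and 0.257. Skeletal muscle had no stable sign. Its median of -0.44 (11 of 15 negative) ran from -3.41 to 2.71 with single mice left out. Keratins shared by mesothelium and ducts, Krt8, Krt18 and Krt7, overlapped between the diets in both maternal groups, Krt8 for example with 79.4 to 1685 reads in VDD daughters (interaction -1.41, standard error 1.42).

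Stromal and matrix genes leaned the same way by less. Of 25 matrix remodelling genes 22 had a negative interaction, 1 at a p under 0.05, with a median of -0.46 (HF difference 0.71 in CTRL and 0.06 in VDD daughters). That gene was Tgfbi, a secreted protein that binds collagen and integrins, with 773, 1244 and 1009 reads in CTRL LF and 1482, 1501 and 1885 in CTRL HF daughters, and 624, 783 and 1088 in VDD LF and 833, 586 and 709 in VDD HF daughters (interaction -0.91, standard error 0.33). Of 16 stromal progenitor genes 14 were negative, 1 at a p under 0.05 (Dpp4, a surface marker of early progenitors, -1.62), and of 15 complement genes 14 were negative and 0 had a p under 0.05.

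Among the 18 collagens 11 were negative, and Col18a1, a basement membrane collagen, was the single one at a p under 0.05. It had 1256, 1221 and 1334 reads in CTRL LF and 2203, 3222 and 2317 in CTRL HF daughters, and 878, 1004 and 859 in VDD LF and 1155, 872 and 1239 in VDD HF daughters (interaction -0.76, standard error 0.24). The median of the collagen list, -0.22, was 0.09 without VDD HF 2083, and most of its genes were higher under HF in both maternal groups (17 of 18 in each).

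The study had asked about adipose inflammation. In daughters it reported Gene Ontology terms of inflammation for HF in CTRL and none in VDD. Its Ingenuity analysis listed pathways in both, more in CTRL than in VDD, and predicted miRNA targets also gave pathways in both. It also reported NF-kB phosphorylation raised in CTRL HF only. Body weight and adiposity index were likewise higher in CTRL HF daughters than in the other groups, VDD HF included. Those are other measures than the interaction. Of 19 cytokine and chemokine genes tested, 0 had a p under 0.05 in either direction, as had 0 of 16 resident macrophage genes, 0 of 18 genes of NF-kB and 0 of 18 interferon response genes. Of all genes 3.87% were positive and 3.98% negative at that level, so 0 in lists of this size is near the share. The signs were less even and went both ways. Positive were 10 of 16 lipid-associated macrophage genes (median 0.09) and 14 of 18 interferon response genes (0.12). So were 9 of 10 T lymphocyte genes, with a median of 1.28, and 0.32 without VDD HF 2081. Negative were 13 of the 16 resident macrophage genes and 12 of the 19 cytokine and chemokine genes, with medians of -0.28 and -0.24. Without VDD HF 2081, the mouse with most T lymphocyte RNA, these medians were -0.90 and -0.59, and the complement median went from -0.27 to -0.89. Without VDD HF 2083 they were -0.012 (resident macrophage) and 0.08 (cytokines and chemokines). Adgre1, the F4/80 antigen of macrophages, had 518, 230.1 and 238 reads in CTRL LF and 683, 609.5 and 739 in CTRL HF daughters, and 163, 158 and 494 in VDD LF and 1020.5, 174 and 234 in VDD HF daughters. In CTRL daughters HF was above LF in every mouse, in VDD daughters 2081 was the single mouse above the LF range, and the interaction was -0.58 (standard error 0.88).

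Itgax, which encodes CD11c, had 44.1, 37 and 17.3 reads in CTRL LF and 44.9, 92.1 and 49.2 in CTRL HF daughters, and 14, 16.3 and 22.9 in VDD LF and 278, 43 and 44.4 in VDD HF daughters (interaction 1.24, standard error 0.92). HF was above LF in both maternal groups. Ccl2, a monocyte chemokine, had HF differences of 1.33 in CTRL and 1.40 in VDD daughters and an interaction of 0.07 (standard error 0.99), whose sign varied with the mouse left out. Tnf and Il6 had at most 20.5 and 3.74 reads and were not tested. Cxcl9 and Cd8a, of T cell recruitment and of cytotoxic T cells, had interactions of 1.25 and 2.51, and for both the highest value was that of VDD HF 2081, with 2738 and 159 reads.

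Nfkb1, Rela and Mapk14, which encode the p50 precursor and p65 subunits of NF-kB and the p38 alpha kinase, had interactions of 0.22, 0.27 and 0.13 with standard errors of 0.19, 0.19 and 0.17. Of 18 NF-kB genes 16 were nonetheless positive, with a median of 0.18. In the p38 list Map3k5, an upstream stress kinase, had 2212, 1725 and 1691 reads in CTRL LF and 792, 792 and 893 in CTRL HF daughters, and 1184, 1252 and 1157 in VDD LF and 1126, 1285 and 720.3 in VDD HF daughters (interaction 0.94, standard error 0.27). Gadd45a, a stress-induced gene of the same list, was the opposite case (-1.22, standard error 0.46).

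The largest negative values belonged to epithelial genes of low level. Cldn2, a claudin of leaky epithelia, had 16.2, 38.2 and 1.33 reads in CTRL LF, 108, 111 and 16.4 in CTRL HF, 689, 49.9 and 34 in VDD LF and 0, 0 and 8.51 in VDD HF daughters (interaction -8.02 on the log2(reads + 1) scale, standard error 1.97). The kidney cadherin Cdh16 had 57.6, 125 and 6.64 reads in CTRL LF, 303, 440.3 and 66.5 in CTRL HF, 1067, 98.7 and 97.7 in VDD LF and 0, 1.83 and 31.2 in VDD HF daughters (interaction -8.05). The highest VDD LF value of both was that of 2303, and without this mouse the interactions were -6.68 and -6.91. For ccdc198 (-6.74), with 0 to 3.78 reads in VDD HF daughters, the highest VDD LF value was also that of 2303 (411 reads). For Cuzd1 (-6.20), with 0 to 37.8 reads in VDD HF daughters, 2303 had the lowest VDD LF value (24.6 reads).

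The vitamin D receptor gene had its highest value in the same mouse. Vdr had 19.8, 51.6 and 35.8 reads in CTRL LF, 62.9, 65.3 and 72 in CTRL HF, 532, 35.8 and 54 in VDD LF and 32.5, 33.9 and 30.2 in VDD HF daughters. HF was above LF in CTRL and below LF in VDD daughters without overlap, and the interaction was -2.61 (standard error 1.10) with 2303 and -1.42 without it. Cyp24a1, the enzyme that degrades active vitamin D, had 536 reads in 2303 and at most 0.899 in the other mice, and Cyp27b1, which makes active vitamin D, had at most 8.98. Lrp2, the endocytic receptor megalin of kidney tubules, had an interaction of -3.92 with 2303 and -2.61 without it.

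Sons, the 12 male libraries of the series, give the same contrast in the other sex, and the difference between the sexes was tested in a fit over all 24 libraries. With limma 0 of 18396 genes passed both thresholds, 702 had a higher interaction in daughters at an unadjusted p under 0.05 (3.82%) and 723 a lower one (3.93%). One gene, Bmp3, had an adjusted p under 0.05, which it did not reach in 17 of 24 fits with a mouse left out, with no filter on low values (adjusted p = 0.0636) or with limma-voom (adjusted p = 0.121). Bmp3 encodes a bone morphogenetic protein that opposes the others of its family, and its mRNA is known to go with fat expansion.

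Bmp3 had 304, 304 and 258 reads in CTRL LF and 1129, 1134 and 607 in CTRL HF daughters, with 310.1, 468 and 335 in VDD LF and 416, 542 and 289 in VDD HF daughters. In sons it had 455, 378 and 249 in CTRL LF, 719, 1193 and 698 in CTRL HF, 102, 134 and 92.2 in VDD LF and 1226, 1061 and 1272 in VDD HF. HF and LF overlapped in VDD daughters, and HF was above LF in the other groups of mice. The interaction was -1.53 in daughters (standard error 0.40) and 2.17 in sons, and the difference between the sexes was -3.70 (standard error 0.56, adjusted p = 0.0438).

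Lep, the leptin gene, had 1114, 661 and 2803 reads in CTRL LF, 7707, 16051 and 3254 in CTRL HF, 1811, 1755 and 1909.7 in VDD LF and 3196, 2688 and 4867 in VDD HF daughters. HF was above LF in both maternal groups without overlap, with differences of 2.54 and 0.93 (interaction -1.61, standard error 0.80). In sons the interaction was 4.61, and the sexes differed by -6.21 (standard error 1.16, adjusted p = 0.299). Mest and Sfrp5, other genes of fat expansion, differed by -4.68 and -4.40. Of 15 genes in this list, 7 had a lower interaction in daughters than in sons at an unadjusted p under 0.05. The share of all genes was 3.93%, and 0 of the 15 had a higher interaction at that level. In sons 8 had a positive interaction at that level (2.59% of all genes in sons) against 0 in daughters.

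**Figure D5:**
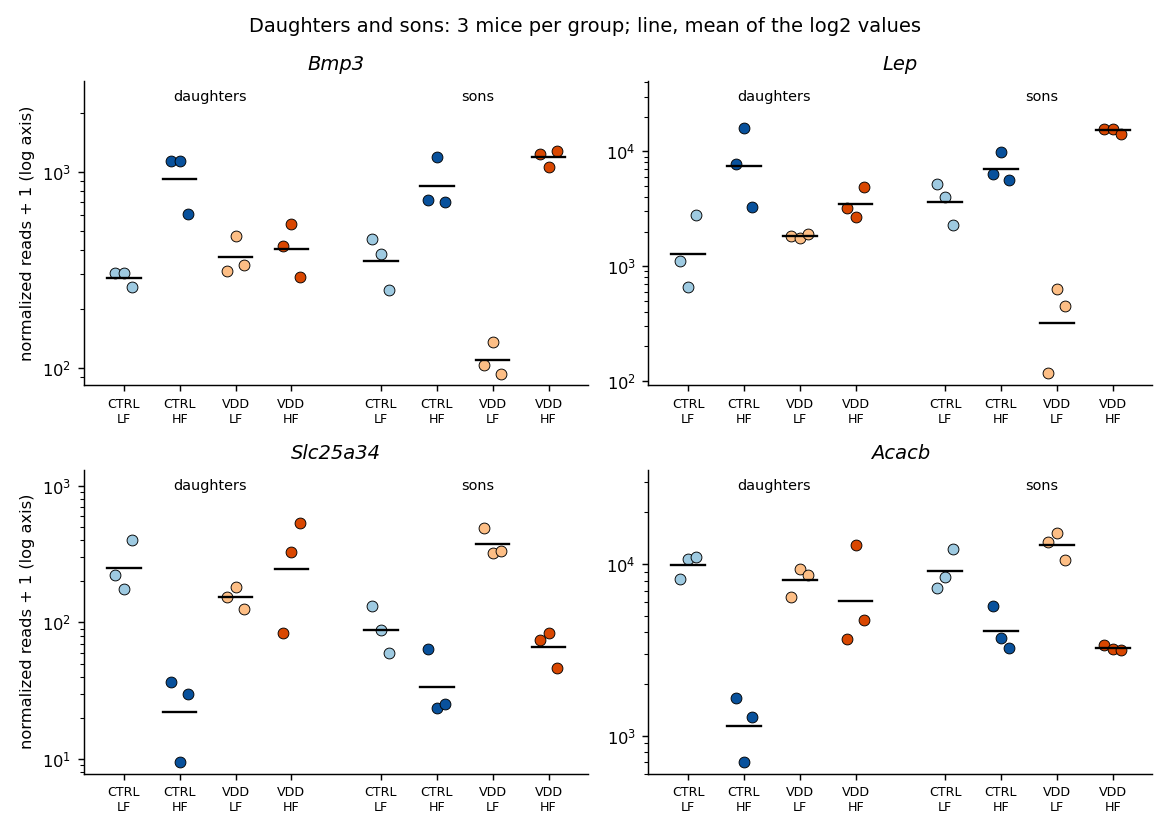
Normalized reads + 1 (log axis) of Bmp3, Lep, Slc25a34 and Acacb in daughters (left) and sons (right), by group; each point is a mouse and each line the mean of the log2 values of 3 mice. CTRL and VDD were scaled apart. Bmp3 is apart by diet, with HF higher, in CTRL daughters and overlaps in VDD daughters, and in sons it runs from 92.2 to 134 in VDD LF to 1061 to 1272 in VDD HF.

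The oxidative genes had the higher interaction in daughters. For fatty acid oxidation 17 of 18 genes had a higher interaction in daughters, 6 at an unadjusted p under 0.05 (against 3.82% of all genes). In the other direction 1 (Cpt1a) had such a p (against 3.93%), and the median interaction of sons was 0.13. Of 32 respiratory chain genes 31 were higher, 8 at a p under 0.05, and sons had a median of -0.18. Thermogenic genes were higher in 16 of 17 (7 at a p under 0.05), with a median of 0.16 in sons. Acacb differed by 3.56 (standard error 0.74), Sephs2 by 1.96 and Slc25a34 by 5.29, each with an adjusted p of 0.408. In sons Acacb was lower under HF in every mouse of both maternal groups.

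Genes that differed most by diet in sons gave a second view of the daughters, since those libraries are not among the 12. The 100 genes with the smallest p for higher levels under HF in sons, averaged over the maternal groups, were chosen after the data were seen, and so were the 100 for lower levels. Of the first, 94 were tested in daughters, with a median HF difference of 1.04 in CTRL and 0.47 in VDD daughters. Of the second, 100 were tested, with medians of -1.09 and -0.55. The interaction was negative for 87 of the 94, 10 at an unadjusted p under 0.05 (against 3.98% of all genes). It was positive for 92 of the 100, 12 at that level (against 3.87%). By their medians, both lists had the same sign of response in the 2 maternal groups and a smaller size in VDD daughters.

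Cell cycle genes were a list without such a difference. All 20 were higher under HF in VDD daughters and 19 of 20 in CTRL daughters, with medians of 0.90 and 0.97. At an unadjusted p under 0.05, 14 and 16 were higher (against 5.09% and 9.2% of all genes). Their median interaction was 0.05, of a sign that varied with the mouse left out, and 0 had a p under 0.05. MHC class II genes had median HF differences of 0.80 in CTRL and 0.84 in VDD daughters, but their median interaction of -0.05 ran from -0.79 without VDD HF 2081 to 0.37 without VDD HF 2121.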

How the data were processed

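RNA-seq was analysed in 12 daughters and, for the sex difference, 12 sons. Per the submitters' processing notes and the study's methods, the authors aligned paired reads to mm10 with STAR 2.7.0d, added assembled loci with Cufflinks 2.2.1, counted reads with featureCounts 1.6.1 and ran DESeq2. The deposited log2 values were made by the authors as log2(reads divided by the size factor of that table + 1), and 100% of values gave whole reads (within 0.02). Each table was scaled on its own, so each HF minus LF difference was taken within 1 table. The tables that compare CTRL with VDD within a diet, and the authors' columns of fold changes and p-values, were not used.

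The interaction was fitted with limma 3.58.1 (lmFit, contrasts.fit, eBayes with a mean-variance trend) in R 4.3.3 over 1 term per group. A call was an adjusted p (Benjamini-Hochberg) under 0.01 together with a fold above 1.5 or below 0.66. Limma was chosen because the deposited values are on a log2 scale. Whole reads could be recovered, and limma-voom on them was an alternative, but DESeq2 was not run here. Columns carry mouse numbers that the labels do not, so each was mapped to its group only.

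Named genes were the 10 with the smallest interaction p in each direction, the 5 with the largest interaction in each direction among those at an unadjusted p under 0.05 with a group mean of at least 100 reads, a fixed set of genes of adipose biology, vitamin D and inflammation, and the 2 of each list with the smallest p, with other list members as examples. Members and lists were chosen with earlier results of these data known. The scripts were tested on simulated data. Reads on genes per library were 13346779 to 18484346. The fit measures the spread between the 3 mice of a group, which includes counting error. Alternatives were other scalings, filters and pseudocounts, array weights, each mouse left out and, chosen after seeing the data, fits without libraries rich in muscle genes or with marker levels as covariates. Some genes that meet the naming rule are not reported here.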

Additional observations from a re-analysis of the deposited data

Results flagged for a closer look

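Bmp3 was singled out because its interaction differed between daughters and sons by a test of the difference itself. The difference was -3.70 (standard error 0.56, adjusted p = 0.0438 by limma over 18396 genes), made of -1.53 in daughters and 2.17 in sons. HF was above LF in all 3 mice against all 3 in CTRL daughters and in both groups of sons, and overlapped with LF in VDD daughters. With single mice left out, the difference ran from -4.004 to -3.467 and the adjusted p from 0.00711 (without CTRL HF daughter 2292) to 0.148, and 17 of 24 such fits did not reach an adjusted p under 0.05. With no filter on low values it was 0.0636 and with limma-voom 0.121. Why the sexes differ was not tested.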

How the results depend on the processing

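No paired analysis was possible because the columns carry mouse numbers and not the replicate numbers of the labels. The count of interaction genes at an unadjusted p under 0.05 (1375) was 2117 with no filter on low values, 2241 with array weights, 603 without the 4 mice rich in muscle genes and 923 (without 2292) to 2196 (without 2121) with single mice left out. Interaction calls were 0 with any mouse left out and 31, all negative, with the brown adipocyte level as a covariate. Calls for HF in CTRL daughters (0) were 76 with array weights, 22 in 1 fit over both sexes, 46 at an adjusted p under 0.05 with no fold limit, 1 with the mesothelium covariate, 12 with the brown adipocyte covariate and 0 to 6 with single mice left out. For HF in VDD daughters the brown adipocyte covariate gave 5. Calls for the sex difference (0) were 1 with array weights, 1 at an adjusted p under 0.05 with no fold limit and 0 to 1 with single mice left out. Positive respiratory chain genes at an unadjusted p under 0.05 (10) were 2 without the muscle-rich mice, 2 without the 2 mice with renal in the column name, 2 with the mesothelium covariate, 0 with the brown adipocyte covariate and 4 to 16 with single mice left out, and positive fatty acid oxidation genes (14) were 8 without the renal-named mice. The cause was not tested, and the muscle, renal and covariate fits were chosen after seeing the data. Of 1034 list medians recomputed, 97 changed sign, and of 2642 values of named genes 21 did. None of these sign changes was in the fatty acid oxidation, thermogenic, respiratory chain or mesothelium lists. List medians and named gene values were not recomputed with limma-voom, array weights, a robust variance model or 1 fit over both sexes. Nor were they with the brown adipocyte covariate, so their signs in those fits were not tested.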

Other observations

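With the brown adipocyte level as a covariate, 31 genes passed the interaction thresholds and all 31 were negative. They included epithelial genes such as the claudin Cldn4, the cadherin Cdh1, the water channel Aqp3 and the transcription factor Elf3. Their summed normalized reads were 2003, 4766 and 536 in CTRL LF, 4159, 989 and 1354 in CTRL HF, 2210.5, 13949 and 8256.5 in VDD LF, and 547.5, 13463 and 7251 in VDD HF daughters. In the VDD groups, mice 2311, 2312, 2083 and 2121 had the high sums of both these genes and the brown adipocyte list (9321, 4473, 21019 and 35501), and 2303 and 2081 the low ones (1426 and 2911). The part of this shared variation in the 31 calls was not tested.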
